A study of Homo sapiens with 18 samples.

Results

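The C/EBP transcription factors examined here are CEBPA, CEBPB, CEBPD and CEBPG, taken by symbol from the counts of RNA-seq libraries of MDA-MB-231 cells. These are 4 of the 60642 symbols that were counted, and all 4 were among the 15298 genes with enough counts to be tested. MDA-MB-231 is an established human triple-negative breast cancer cell line. The cells were transfected with a SMART-pool of siRNAs against PRMT5 (siPRMT5), against CBX3, the gene that encodes HP1γ (siHP1γ), or with a non-specific siRNA (siNS), and were then treated for 8 h with 100 nM dexamethasone (Dex), a synthetic glucocorticoid that activates the glucocorticoid receptor (GR), or with its vehicle ethanol (Eth). This gave 6 conditions with 3 replicates each, and the 18 libraries hold between 8682992 and 12472381 reads counted on genes. All groups come from 1 cell line, each protein was depleted with 1 siRNA pool, and every group had been transfected.

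C/EBP proteins are basic leucine zipper (bZIP) transcription factors. They bind DNA as dimers, with one another or with other bZIP proteins such as ATF4, through a basic region and a leucine zipper at the C-terminal end. C/EBPα drives differentiation and growth arrest in liver, fat and myeloid cells, C/EBPβ and C/EBPδ respond to cytokines and hormones in the acute phase response and early in adipogenesis, and C/EBPγ lacks the activation domains of the others and is known as a dimer partner, in particular of ATF4 in the response to amino acid shortage. CEBPB and CEBPD are textbook targets of glucocorticoids in fat and liver cells.

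The promoters of CEBPA, CEBPB and CEBPG are shown so that a gene that rose with Dex (CEBPB) and genes that did not pass (CEBPA, CEBPG) can be set side by side. No promoter is shown for CEBPD, which also rose with Dex, so the windows do not describe that member. Each window runs from 250 bases before to 50 bases after a start site that RefSeq gives on GRCh38.p14, on the gene's own strand, 5′ to 3′. CEBPB and CEBPG each had 2 such windows, and the 1 whose start lay nearest the GENCODE start is shown and described. Capitals mark every match, on either strand, to the TATA box, the CCAAT box and the GC box, which are spelled out after the sequences. The windows lie at chr19:33302485-33302784 (CEBPA), chr20:50190580-50190879 (CEBPB) and chr19:33373459-33373758 (CEBPG, whose RefSeq start is 24 bases from the GENCODE start).
CEBPA: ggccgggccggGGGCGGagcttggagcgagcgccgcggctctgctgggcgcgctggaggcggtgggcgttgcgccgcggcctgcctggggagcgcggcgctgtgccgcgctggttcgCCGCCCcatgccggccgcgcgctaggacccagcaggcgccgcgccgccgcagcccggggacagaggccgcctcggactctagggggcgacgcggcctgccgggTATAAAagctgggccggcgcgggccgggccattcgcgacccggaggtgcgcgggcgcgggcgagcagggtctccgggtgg
CEBPB: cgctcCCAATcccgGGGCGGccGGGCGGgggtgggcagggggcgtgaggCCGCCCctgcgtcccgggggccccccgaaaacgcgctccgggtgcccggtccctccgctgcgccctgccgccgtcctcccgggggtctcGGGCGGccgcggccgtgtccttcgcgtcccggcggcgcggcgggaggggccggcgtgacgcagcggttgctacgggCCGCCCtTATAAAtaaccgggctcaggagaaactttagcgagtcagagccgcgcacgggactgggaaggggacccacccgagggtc
CEBPG: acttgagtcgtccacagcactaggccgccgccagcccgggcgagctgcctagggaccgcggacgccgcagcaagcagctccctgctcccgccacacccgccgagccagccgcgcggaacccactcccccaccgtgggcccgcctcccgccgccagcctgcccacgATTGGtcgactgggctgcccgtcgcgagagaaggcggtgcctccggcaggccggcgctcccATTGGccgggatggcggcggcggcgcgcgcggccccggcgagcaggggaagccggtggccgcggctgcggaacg

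A TATA box (TATAAA) stood at position -30 of CEBPA and at -29 of CEBPB, counted from the start site, and no such letters were in the CEBPG window. Of the 35116 promoter windows of RefSeq, 11.5% held TATAAA. CEBPG had CCAAT boxes at -85 and -24, both read on the opposite strand, CEBPB had 1 at -245 and CEBPA had none, and 34.6% of all windows held this motif. The CEBPG match at -24 begins at the GENCODE start, so whether it lies before the gene depends on which start is used. The GC box GGGCGG was matched 5 times in CEBPB, 2 times in CEBPA and not in CEBPG, against 45.0% of all windows with at least 1 match. GC content was 80.7% in the CEBPA window, 76.7% in that of CEBPB and 77.3% in that of CEBPG, and the median over all windows was 58.7%. Matches to these motifs did not overlap one another. The hexamer that each GR subunit binds (AGAACA), present in 14.8% of all windows, was in none of these 3, nor were the CRE (TGACGTCA, 1.85% of windows), the palindromic C/EBP site (TTGCGCAA, 0.151%) or the composite site of ATF4 and C/EBP dimers (TGATGNAAT, 0.991%). A full GR site, in which the hexamer is followed after 3 bases by its reverse complement, was not found with these exact letters within 100 kb of the start of CEBPA, CEBPB, CEBPD or CEBPG. Such a site lay within that distance for 3.56% of the 11680 tested protein-coding genes. These matches describe letters only, and neither a match nor the lack of one tells where GR or a C/EBP protein binds.

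On hg38 (GENCODE 44), CEBPA lies on the minus strand of chromosome 19, from 33299934 to 33302534, and CEBPG on the plus strand of the same chromosome, from 33373685 to 33382686, so that their starts are 71.2 kb apart. CEBPB lies on the plus strand of chromosome 20, from 50190830 to 50192668, and CEBPD on the minus strand of chromosome 8, from 47736913 to 47738164. CEBPA, CEBPB and CEBPD each consist of 1 exon, and the annotated transcripts of CEBPG merge into 3 exonic stretches. Annotated noncoding RNAs without a gene symbol overlap CEBPA, and no counts were found for them. The antisense gene CEBPB-AS1 overlaps CEBPB. It had between 2 and 14 counts in a library, against 533 to 2525 for CEBPB, and since the strand setting of the counting is not given in the sources used here, reads from this pair cannot be told apart.

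The targeted genes were low in the libraries named for their siRNA. PRMT5 was at 249 ± 20.0 CPM (counts relative to the TMM-scaled library size; mean ± SD, n = 3, here and below) in siNS Eth and at 7.41 ± 1.17 CPM in siPRMT5 Eth, and CBX3 at 256 ± 20.1 CPM in siNS Eth and 9.89 ± 0.657 CPM in siHP1γ Eth. PRMT5 was also at 78.7% of its siNS level in siHP1γ cells with Dex (adjusted p = 0.00123). The GR targets TSC22D3, FKBP5, PER1 and KLF9 rose with Dex in each of the 3 siRNA backgrounds, by 1.71 to 3.64 on the log2 scale. The cells expressed the mesenchymal and keratin markers VIM, CD44, AXL, CAV1, KRT8 and KRT18 and the GR gene NR3C1, and ESR1, PGR and CDH1 were at 0 to 0.218 CPM. Of the other luminal and receptor genes, ERBB2 was at 24.5 to 36.0 CPM, FOXA1 at 3.27 to 10.3 CPM and GATA3 at 2.68 to 7.48 CPM. Of 14 markers of blood, endothelial, fat and liver cells, CD68 and PECAM1 were above 1 CPM in every library, and ADIPOQ and TTR were at 0 throughout. The 14 markers summed to between 5.4 and 11.4 CPM in a library, with 5.5 to 6.84 CPM in siNS Eth and 7.74 to 9.63 CPM in siNS Dex. Of these markers PECAM1 rose with Dex in siNS cells, from 1.29 ± 0.175 to 4.14 ± 0.339 CPM (log2 fold change 1.67 ± 0.24, adjusted p = 1.59e-05). It was at 6.83 ± 1.25 CPM in siPRMT5 Dex. CD68 (-0.38 ± 0.32) and APOA1 (0.40 ± 0.54) did not pass for Dex in siNS cells. The part of such RNA in the results was not tested.

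CEBPB and CEBPD rose with Dex, CEBPA and CEBPG did not pass that test, and PRMT5 depletion lowered CEBPG and raised CEBPD whether or not Dex was given. In siNS cells CEBPB rose 2.27-fold and CEBPD 3.70-fold with Dex. CEBPG was at 55.9% of its siNS level in siPRMT5 Eth and at 60.2% in siPRMT5 Dex. CEBPA, at 3.09 to 6.27 CPM, passed no test. In RNA from whole cultures, a change in the RNA of each cell cannot be told apart from a change in the number of cells that express the gene.

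**Figure D1:**
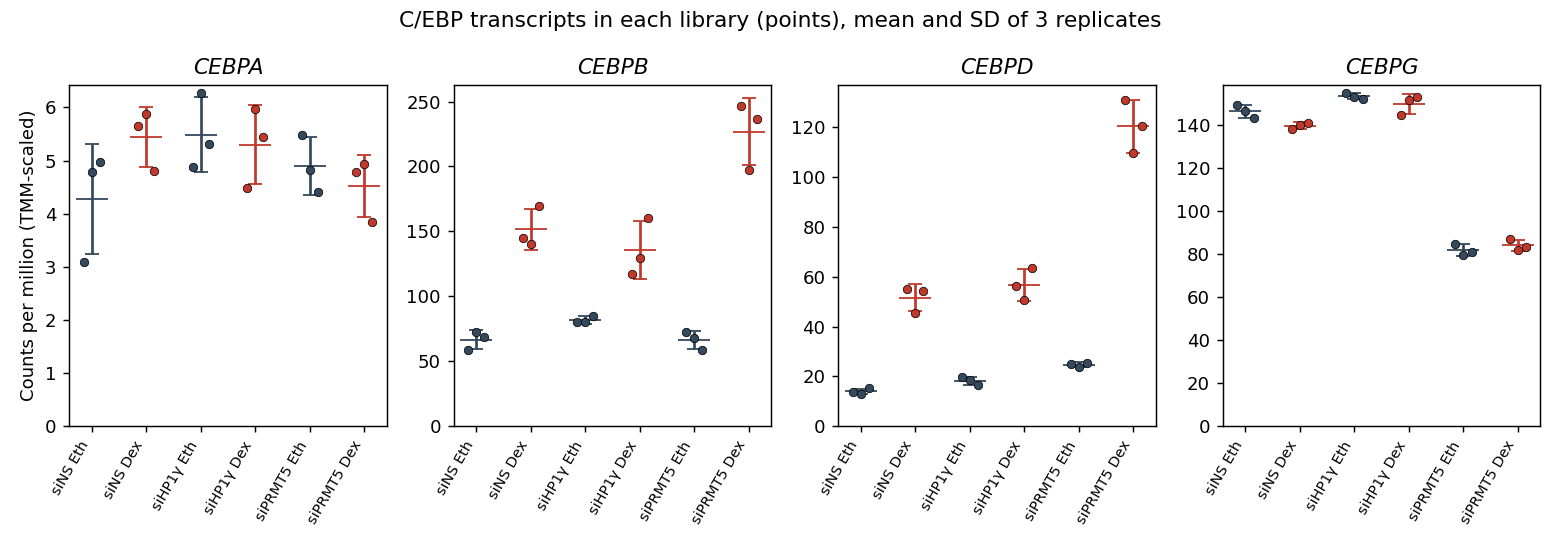
CPM (TMM-scaled, y axis from 0, a separate scale for each gene) of the 4 C/EBP genes in the 6 conditions. Points are the 3 libraries of a condition, the horizontal line is their mean and the bars are ± SD, with Eth in blue-grey and Dex in red. CEBPD in siPRMT5 Dex (110 to 131 CPM) is above all other libraries, and CEBPG in siPRMT5 cells (79.6 to 86.7 CPM) is below all other libraries.

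CEBPD was the member with the largest response to Dex. Its 3 libraries were at 13.6, 13.0 and 15.2 CPM in siNS Eth and at 55.0, 45.3 and 54.4 CPM in siNS Dex. In siHP1γ cells the libraries were at 19.6, 18.5 and 16.6 CPM with Eth and at 56.1, 50.6 and 63.6 CPM with Dex. In siPRMT5 cells they were at 25.0, 23.8 and 25.4 CPM with Eth and at 131, 110 and 121 CPM with Dex. Dex and Eth libraries did not overlap in any of the 3 backgrounds, and both siPRMT5 groups lay above the siNS and siHP1γ groups of the same treatment. The log2 fold change with Dex was 1.89 ± 0.11 (SE) in siNS cells (adjusted p = 1.19e-12), 1.64 ± 0.10 in siHP1γ cells (adjusted p = 1.19e-11) and 2.28 ± 0.10 in siPRMT5 cells (adjusted p = 2.05e-15).

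CEBPB also rose with Dex in each background. It was at 58.8, 72.3 and 69.0 CPM in siNS Eth and at 145, 140 and 169 CPM in siNS Dex. In siHP1γ cells it was at 80.3, 79.9 and 84.9 CPM with Eth and at 117, 130 and 160 CPM with Dex. In siPRMT5 cells it was at 72.7, 67.5 and 59.0 CPM with Eth and at 247, 197 and 237 CPM with Dex. The Dex libraries were above the Eth libraries in each background, the siHP1γ Dex libraries overlapped those of siNS Dex, and the siPRMT5 Dex libraries were above both. The log2 fold change with Dex was 1.18 ± 0.11 in siNS cells (adjusted p = 1.01e-08), 0.73 ± 0.11 in siHP1γ cells (adjusted p = 3.78e-05) and 1.77 ± 0.11 in siPRMT5 cells (adjusted p = 2.43e-12).

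In each background 2 of the 4 members thus rose with Dex and none fell (adjusted p under 0.01 and at least 1.5-fold). Over all genes tested, 1.65% rose and 1.06% fell by this rule in siNS cells, 1.01% rose and 0.66% fell in siHP1γ cells, and 2.69% rose and 2.75% fell in siPRMT5 cells. CEBPG was at 149, 146 and 143 CPM in siNS Eth and at 138, 140 and 141 CPM in siNS Dex, a log2 fold change of -0.07 with a 95% interval from -0.19 to 0.05 (adjusted p = 0.555). The groups did not overlap, and the difference did not pass the test. The interval was -0.16 to 0.09 in siHP1γ cells and -0.09 to 0.17 in siPRMT5 cells. CEBPA was at 3.09, 4.79 and 4.97 CPM in siNS Eth and at 5.65, 5.88 and 4.81 CPM in siNS Dex, from 28 to 64 counts a library, and the groups overlapped. Its interval for the Dex response in siNS cells ran from -0.05 to 0.72 on the log2 scale (adjusted p = 0.306), so that a difference was not detectable at this depth. With 3 against 3 libraries, an exact permutation test of a single gene cannot go below 0.1, and CEBPB and CEBPD gave that value for Dex against Eth in each background, as did CEBPG in siNS cells.

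Whether the depletions altered the response to Dex was tested as the difference between responses. In siPRMT5 cells the response of CEBPB was 0.59 ± 0.15 larger on the log2 scale than in siNS cells (adjusted p = 0.0285), where 3.8% of all genes tested differed. This call was lost in 8 of the 18 fits that each left out 1 library, without siNS Eth replicates 2 or 3, siNS Dex replicates 1 or 2, siPRMT5 Eth replicates 2 or 3, or siPRMT5 Dex replicates 1 or 3, with values from 0.52 to 0.69 and adjusted p up to 0.0793. The response of CEBPD was 0.39 ± 0.15 larger in siPRMT5 cells and did not pass (adjusted p = 0.147, interval 0.08 to 0.70). In siHP1γ cells the response of CEBPB was lower by 0.45 on the log2 scale, with an interval from -0.77 to -0.14, and did not pass (adjusted p = 0.141), where 0.399% of all genes tested differed. It passed when genes with low counts were not removed (adjusted p = 0.0172). That of CEBPD differed by -0.25 (interval -0.56 to 0.07, adjusted p = 0.426).

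**Figure D2:**
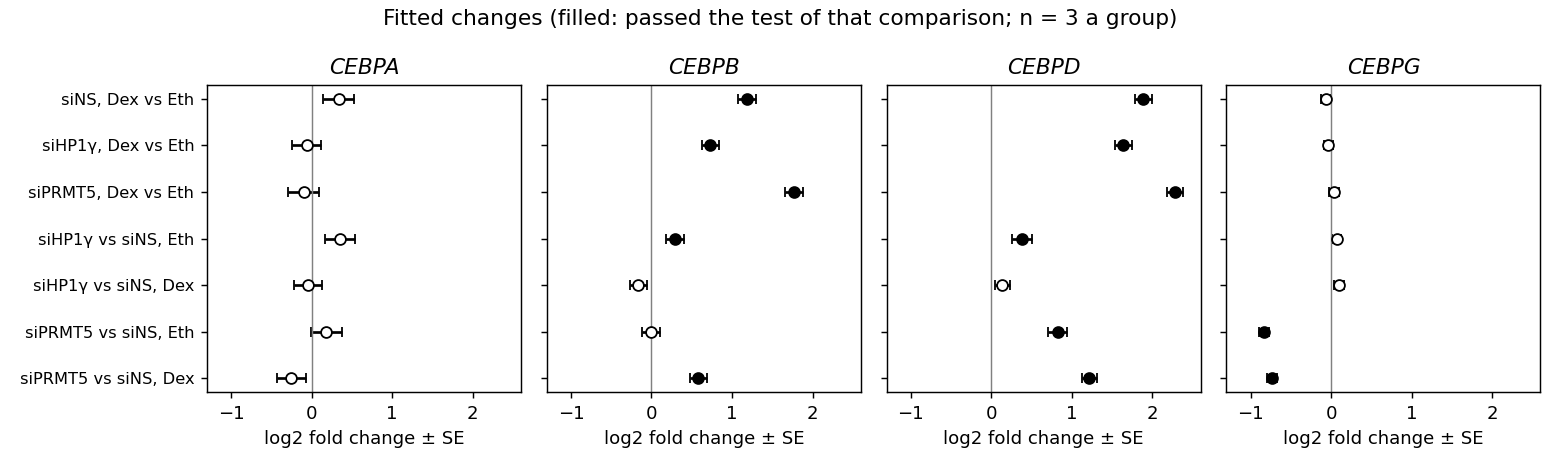
Log2 fold changes (x axis, ± SE) of the 4 genes in 7 comparisons, from 1 fit of the 18 libraries with 3 libraries a group; filled points passed the test of their comparison. CEBPB and CEBPD are filled on the right for the 3 Dex responses, and CEBPG is filled on the left in both siPRMT5 comparisons (-0.84 with Eth and -0.73 with Dex).

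CEBPG was the member that PRMT5 depletion lowered. The siPRMT5 Eth libraries were at 84.7, 79.6 and 81.0 CPM and the siPRMT5 Dex libraries at 86.7, 81.9 and 83.4 CPM. In siHP1γ cells CEBPG was at 155, 153 and 152 CPM with Eth and at 145, 152 and 153 CPM with Dex. The 6 siPRMT5 libraries were below the other 12, and the siNS and siHP1γ libraries lay close together. The siHP1γ libraries were above the siNS libraries of the same treatment without overlap, and neither difference passed. With Eth it was 0.07 (interval -0.05 to 0.19, adjusted p = 0.415) and with Dex 0.10 (adjusted p = 0.234). For siPRMT5 against siNS cells the log2 fold change was -0.84 ± 0.06 with Eth (adjusted p = 3.43e-11) and -0.73 ± 0.06 with Dex (adjusted p = 3.39e-10). Against siHP1γ cells it was -0.91 ± 0.06 with Eth (adjusted p = 5.51e-12) and -0.83 ± 0.06 with Dex (adjusted p = 1.91e-11). The effect of PRMT5 depletion on CEBPG did not pass a test of difference between Dex and Eth (0.11 ± 0.09, adjusted p = 0.548, interval -0.07 to 0.28).

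PRMT5 depletion raised CEBPD, and raised CEBPB in the presence of Dex. CEBPD was 1.77-fold higher in siPRMT5 than in siNS cells with Eth (log2 fold change 0.83 ± 0.12, adjusted p = 3.18e-06) and 2.33-fold higher with Dex (1.22 ± 0.09, adjusted p = 6.39e-11). CEBPB was 1.5-fold higher with Dex (0.58 ± 0.10, adjusted p = 6.25e-05). With Eth its groups overlapped, and the difference was -0.01 with an interval from -0.24 to 0.22 (adjusted p = 0.963). CEBPA was at 5.47, 4.81 and 4.40 CPM in siPRMT5 Eth and at 4.79, 4.93 and 3.85 CPM in siPRMT5 Dex. It did not pass with Eth (0.18, interval -0.22 to 0.59) or with Dex (-0.25, interval -0.63 to 0.13). With Dex, 2 of the 4 members were higher in siPRMT5 cells and 1 was lower, beside 20.6% of all genes higher and 21.9% lower (adjusted p under 0.05, also for the other depletions). With Eth, 1 was higher and 1 lower, beside 20.6% higher and 21.6% lower. Calls in these comparisons were thus common among all genes.

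HP1γ depletion raised CEBPD and CEBPB in the absence of Dex. With Eth, CEBPD was 1.30-fold higher than in siNS cells (0.38 ± 0.12, adjusted p = 0.0173) and CEBPB 1.22-fold higher (0.29 ± 0.11, adjusted p = 0.0472), beside 16.5% of all genes higher and 15.2% lower. The CEBPB call was lost in 13 of the 18 fits that left out 1 library, with adjusted p up to 0.236 (without siNS Eth replicate 1), and stood only without siNS Eth replicate 2, siHP1γ Dex replicate 1 or 3, siPRMT5 Eth replicate 3 or siPRMT5 Dex replicate 2, whereas that of CEBPD was lost in 3 (without siNS Eth replicate 1 or 2 or siHP1γ Eth replicate 1, adjusted p up to 0.0848). With Dex none of the 4 passed, where 11.7% of all genes were higher and 12.3% lower. The intervals with Dex were -0.38 to 0.05 for CEBPB, -0.06 to 0.33 for CEBPD, -0.02 to 0.22 for CEBPG and -0.41 to 0.32 for CEBPA. Without siHP1γ Dex replicate 3, CEBPB passed as lower in siHP1γ Dex (-0.30, adjusted p = 0.0371). CEBPA was at 4.88, 6.27 and 5.31 CPM in siHP1γ Eth and at 4.49, 5.96 and 5.45 CPM in siHP1γ Dex. With Eth its difference from siNS cells was 0.35, with an interval from -0.03 to 0.74 (adjusted p = 0.16).

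The depletions were also compared with each other. With Dex, CEBPD was 2.12-fold (log2 1.08 ± 0.09) and CEBPB 1.67-fold (0.74 ± 0.10) higher in siPRMT5 than in siHP1γ cells. With Eth, CEBPD was 1.36-fold higher in siPRMT5 cells (adjusted p = 0.0021) and CEBPB was at 81.2% of its siHP1γ level (adjusted p = 0.0286). This last call was lost without siHP1γ Eth replicate 1 or 3 or siPRMT5 Eth replicate 2 or 3, with adjusted p up to 0.163. In both treatments 3 of 4 members passed, with CEBPG among them, where 49.9% of all genes passed with Dex and 48.4% with Eth.

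In the order of its levels, CEBPD ran from siNS Eth through siHP1γ Eth, siPRMT5 Eth, siNS Dex and siHP1γ Dex to siPRMT5 Dex, and among neighbours that were tested only siNS Dex and siHP1γ Dex did not pass a test of their difference. CEBPB ran from siPRMT5 Eth and siNS Eth, whose difference did not pass, through siHP1γ Eth, siHP1γ Dex and siNS Dex to siPRMT5 Dex, and that between siHP1γ Dex and siNS Dex did not pass either. CEBPG formed a low pair, siPRMT5 Eth and siPRMT5 Dex, and a high set of the other 4 conditions, within which no difference that was tested passed. CEBPA had no order that any test bore out.

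Per kb of exon, the makeup of the family differed between conditions. Per-length values assume reads along the whole transcript, and whether the library kit covered the transcript or its 3′ end is not given in the sources used here. In siNS Eth, CEBPB (36.3 ± 3.80 CPM per kb) and CEBPG (36.1 ± 0.714 CPM per kb) were the most abundant members, CEBPD was at 11.1 ± 0.908 and CEBPA at 1.65 ± 0.399 CPM per kb. The sum of the 4 was 85.1 ± 3.77 CPM per kb in siNS Eth, 160 ± 11.6 in siNS Dex, 77.9 ± 4.26 in siPRMT5 Eth and 242 ± 23.0 in siPRMT5 Dex. CEBPG held 42.4% ± 2.66 of the sum in siNS Eth, 21.6% ± 1.49 in siNS Dex, 25.9% ± 0.931 in siPRMT5 Eth and 8.6% ± 0.62 in siPRMT5 Dex. CEBPD held 13.1% ± 1.09 in siNS Eth and 39.8% ± 0.701 in siPRMT5 Dex, and CEBPB between 42.5% and 51.4% in all conditions. In siHP1γ cells the shares of CEBPG were 38.2% ± 0.294 with Eth and 23.5% ± 1.97 with Dex.

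**Figure D3:**
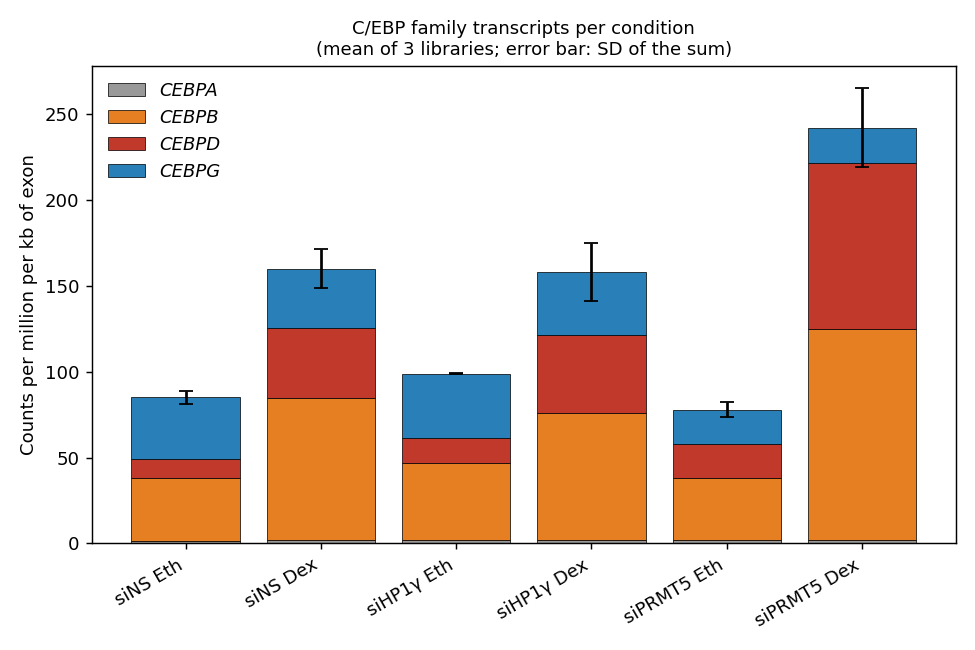
Stacked mean levels (CPM per kb of exon, y axis from 0, n = 3 libraries a condition) of the 4 C/EBP genes; the error bar is the SD of the sum. The sum is largest in siPRMT5 Dex (242 CPM per kb), where the CEBPG segment is 20.7 CPM per kb and the CEBPD segment 96.2 CPM per kb.

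Further genes that bear the C/EBP name were looked at as well. CEBPE, which encodes a granulocyte factor, had 1 count in 1 siNS Eth library, 1 count in 1 siHP1γ Dex library and none elsewhere, where a count of 0 allows up to 0.236 to 0.352 CPM (3 counts in a library, counting error only). CEBPZ, which bears the family's name but is no bZIP protein, was at 144 to 211 CPM and passed in no comparison. CEBPA-DT, a noncoding RNA that starts 0.323 kb from CEBPA in the opposite direction, had 7 to 29 counts a library and passed in none. CEBPZOS, a gene on the strand opposite CEBPZ that was chosen after its values were seen, was lower in siPRMT5 than in siNS cells with Eth (-0.61 ± 0.12, adjusted p = 0.00025) and higher in siHP1γ than in siNS cells with Dex (0.39 ± 0.12, adjusted p = 0.0191). It was also lower in siPRMT5 than in siHP1γ cells with both treatments (-0.67 ± 0.12 with Dex and -0.46 ± 0.12 with Eth).

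The 300 kb on either side of each start were examined for neighbouring genes that moved with a member. Around CEBPG, 6 of 20 annotated genes were tested, and none was lower in siPRMT5 cells with either treatment. Of all genes 21.6% were lower there with Eth and 21.9% with Dex, and 20.6% were higher with each. GPATCH1, whose start lies 292.8 kb before that of CEBPG, was higher (log2 fold change 0.45 ± 0.09 with Eth and 0.44 ± 0.09 with Dex). The other 5, CEBPA among them, did not pass. Around CEBPB, 8 of 20 were tested and none passed for Dex in any background. Of all genes 1.65% rose and 1.06% fell with Dex in siNS, 1.01% and 0.66% in siHP1γ, and 2.69% and 2.75% in siPRMT5 cells. In siPRMT5 cells with Dex 1 of the 8 was higher and 2 were lower, beside 20.6% and 21.9% of all genes. With Eth 1 was higher and 1 lower, beside 20.6% and 21.6%. SPATA2, 275.3 kb away, was lower in siPRMT5 cells (-0.87 ± 0.09 with Eth and -0.89 ± 0.09 with Dex) while CEBPB was not. The neighbour SNAI1 was lower there with Dex (-0.55 ± 0.20). LINC01270 was higher with Dex (0.39 ± 0.14), where CEBPB was higher too, and with Eth (0.39 ± 0.15), where CEBPB did not pass. In siHP1γ Eth, where CEBPB was 0.29 higher, 4 of the 8 neighbours were higher and none was lower, beside 16.5% and 15.2% of all genes. SPATA2 was among them (0.62 ± 0.08). SNAI1, which encodes the mesenchymal transcription factor SNAIL and lies 207.8 kb away, was another (1.06 ± 0.16). LINC01270, 101.9 kb away, was at 0.72 ± 0.14, and the nearer LINC01275, 24.6 kb away and named after its values were seen as the last of the 4, at 1.36 ± 0.42. In siHP1γ Dex, where CEBPB did not pass, 2 of the 8 were higher and none was lower, beside 11.7% and 12.3% of all genes. Around CEBPD, 3 of 11 were tested and none passed for Dex in any background, beside the same low shares of all genes. MCM4, a subunit of the replicative helicase, was lower in siPRMT5 Dex (-0.34 ± 0.07), where CEBPD was higher. MCM4 was also lower in siPRMT5 Eth (-0.24 ± 0.07), in siHP1γ Eth (-0.27 ± 0.07) and in siHP1γ Dex (-0.30 ± 0.07). In the last of these CEBPD did not pass. The neighbour PRKDC was lower in siHP1γ Dex (-0.42 ± 0.10), and UBE2V2 in siHP1γ Eth (-0.57 ± 0.08) and siPRMT5 Eth (-0.40 ± 0.08).

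**Figure D4:**
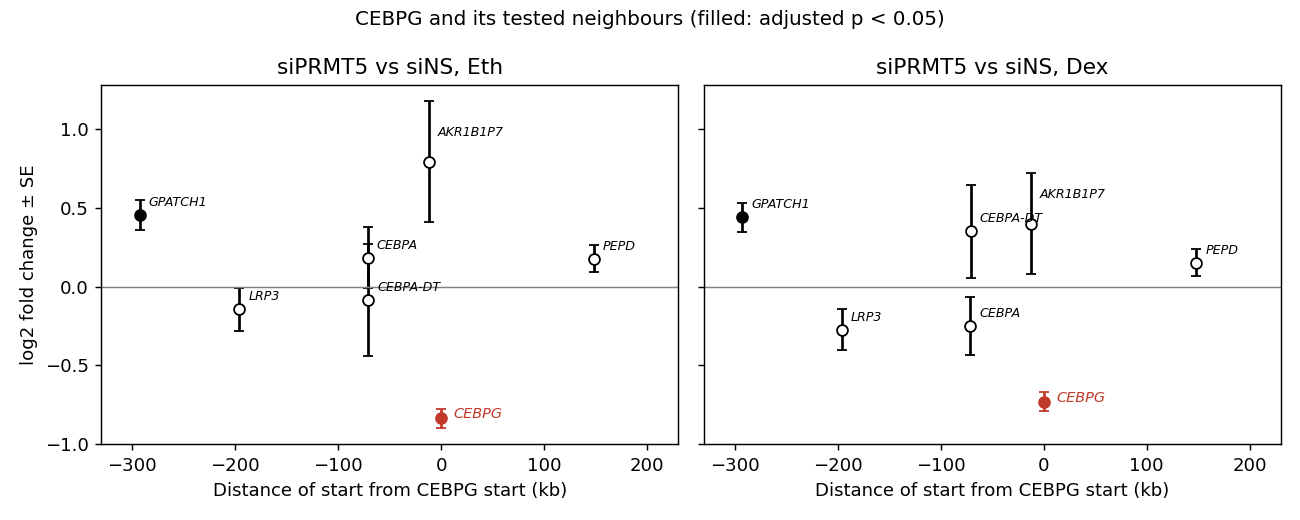
Log2 fold changes (y axis, ± SE) of CEBPG (red) and the tested genes whose start lies within 300 kb (x axis, kb from the start of CEBPG), for siPRMT5 against siNS with Eth (left) and Dex (right); filled points have an adjusted p under 0.05. CEBPG is the filled point below 0 in both panels (-0.84 and -0.73).

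Relatives and bZIP partners of C/EBP proteins were taken as a list of 18, of which 15 were tested. The list also holds CEBPZ, and without it, chosen after the values were seen, 14 were tested, the counts were as given here and the medians in siPRMT5 cells were -0.23 with Dex and with Eth. In siPRMT5 cells 2 were higher and 7 lower with Dex, and 2 were higher and 6 lower with Eth, where of all genes 20.6% were higher and 21.9% lower with Dex, and 20.6% higher and 21.6% lower with Eth. The list had a median log2 fold change of -0.17 with Dex and -0.18 with Eth, beside medians of 0.00 over all genes. ATF4, the partner of C/EBPγ that drives amino acid synthesis genes, was at 302 ± 12.7 CPM in siNS Eth and lower, at 190.0 ± 13.1 CPM, in siPRMT5 Eth (log2 fold change -0.67 ± 0.07, adjusted p = 1.17e-08) and by a like amount with Dex (-0.66 ± 0.07, adjusted p = 1.47e-08). DBP, a clock output factor, rose (1.70 ± 0.25 with Eth). With Dex in siNS cells 1 of the 15 fell, and none rose, beside 1.65% of all genes that rose and 1.06% that fell. This was JUN, an AP-1 subunit, at 384 ± 22.1 CPM in siNS Eth and 156 ± 2.46 CPM in siNS Dex. In siHP1γ cells with Dex 2 were higher and 1 lower, beside 11.7% and 12.3% of all genes, led by NFIL3, a bZIP repressor (0.49 ± 0.08).

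Genes that the ATF4 response acts on, in which C/EBP proteins serve as partners, were a list of 14 with 13 tested. In siPRMT5 cells 1 was higher and 9 lower with Eth, and none was higher and 8 lower with Dex, beside 20.6% of all genes higher and 21.6% lower with Eth, and 20.6% and 21.9% with Dex. The median log2 fold change was -0.64 with Eth and -0.35 with Dex. CHAC1, which degrades glutathione, fell from 12.4 ± 1.48 to 3.85 ± 0.833 CPM with Eth (-1.70 ± 0.17). SLC7A11, the cystine transporter, fell by 1.23 on the log2 scale with Eth and by 1.47 with Dex, and SHMT2, of serine and glycine metabolism, by 0.80 and 0.84. In siHP1γ cells the list was split, with 4 higher and 4 lower with Eth (16.5% and 15.2% of all genes) and 5 higher and 3 lower with Dex (11.7% and 12.3%). With Dex in siNS cells 1 of 13, DDIT4, an inhibitor of mTORC1, rose (1.01 ± 0.09) and none fell. Of all genes 1.65% rose and 1.06% fell there.

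**Figure D5:**
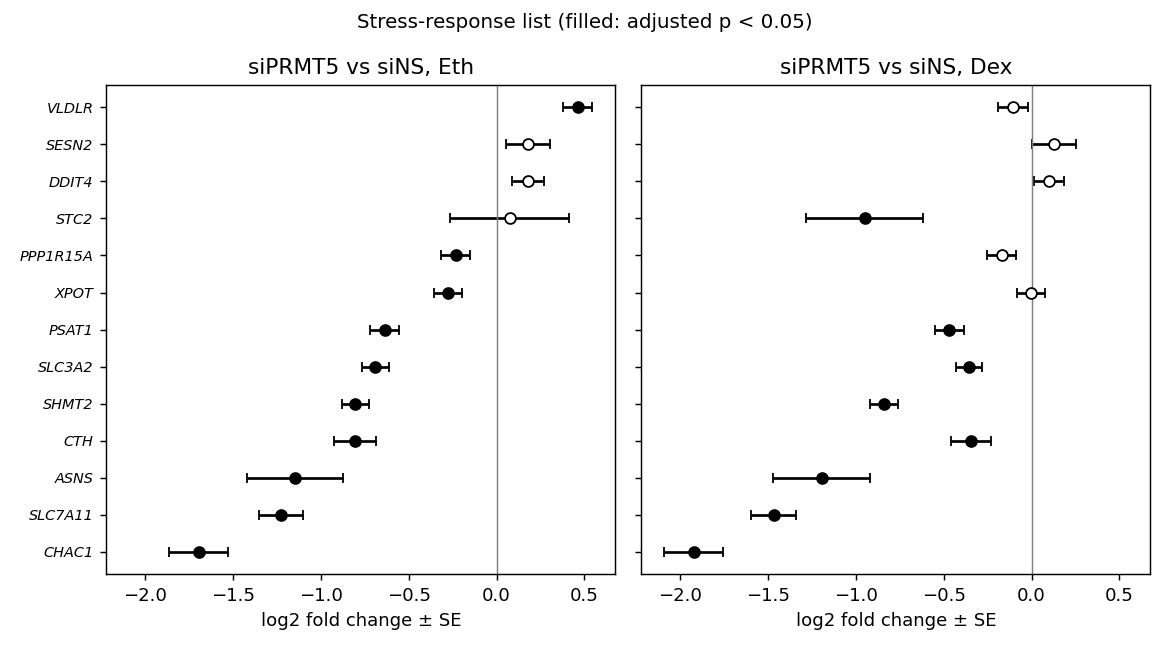
Log2 fold changes (x axis, ± SE) of the 13 tested genes of the stress-response list, for siPRMT5 against siNS with Eth (left) and Dex (right); filled points have an adjusted p under 0.05. With Eth 9 filled points are below 0 and 1 is above it, and with Dex 8 are below 0.

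Cytokine and STAT signals that induce CEBPB and CEBPD were a list of 16 with 14 tested. In siNS cells 2 rose with Dex and 2 fell, with a median log2 fold change of 0.11, where 1.65% of all genes rose and 1.06% fell. IL1R1, the receptor of interleukin 1, rose (2.34 ± 0.14, adjusted p = 1.94e-12), and IL1A and IL1B, its ligands, fell (-0.76 ± 0.09 and -0.81 ± 0.10). In siPRMT5 cells 8 were higher and 3 lower with Eth, beside 20.6% and 21.6% of all genes, and 5 were higher and 1 lower with Dex, beside 20.6% and 21.9%. IL1A was lower with Eth (-1.50 ± 0.09, adjusted p = 1.11e-12) and with Dex (-0.78 ± 0.09). SOCS3, an inhibitor of STAT3 signalling, was higher with Eth (1.04 ± 0.09), and TLR4, a receptor for bacterial lipopolysaccharide, as well (1.14 ± 0.11). In siHP1γ cells 8 were higher and 2 lower with Eth (16.5% and 15.2% of all genes) and 6 were higher and 2 lower with Dex (11.7% and 12.3%), and SOCS3 was among the lower ones (-0.64 ± 0.10 with Eth). The list thus held members that moved in both directions.

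Genes whose products modify C/EBP proteins were a list of 21 with 20 tested. None passed for Dex in siNS or siPRMT5 cells, and 1 fell in siHP1γ cells, TRIB1, an adaptor that brings C/EBPα to the COP1 ligase (-0.63 ± 0.09). Of all genes 1.65% rose and 1.06% fell with Dex in siNS, 2.69% and 2.75% in siPRMT5, and 1.01% and 0.66% in siHP1γ cells. In siPRMT5 cells 7 were higher and 7 lower with Dex, where 20.6% of all genes were higher and 21.9% lower, and 8 were higher and 4 lower with Eth, where the shares were 20.6% and 21.6%. TRIB2, the paralog of TRIB1, rose from 24.8 ± 2.17 to 82.6 ± 9.73 CPM with Eth (1.74 ± 0.10). MAPK3, which encodes the kinase ERK1, fell from 72.0 ± 8.57 to 30.7 ± 2.06 CPM (-1.23 ± 0.10). In siHP1γ cells TRIB3, a further Tribbles protein, was lower (-0.78 ± 0.10 with Eth and -0.88 ± 0.10 with Dex). With Eth 7 were higher and 4 lower there (16.5% and 15.2% of all genes), and with Dex 1 was higher and 3 were lower (11.7% and 12.3%).

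Among acute phase and inflammatory targets of C/EBP proteins, 6 of 25 were tested, since most liver genes of the list had few or no counts. In siNS cells 1 rose with Dex and 1 fell, beside 1.65% and 1.06% of all genes. CSF3, which encodes the cytokine G-CSF, was at 7.08 ± 0.0798 CPM with Eth and 13.4 ± 2.49 CPM with Dex (0.93 ± 0.16), and CXCL8, the neutrophil chemokine, fell from 25.0 ± 1.67 to 11.9 ± 0.0522 CPM (-1.07 ± 0.12). In siPRMT5 cells 4 were higher and 1 lower with Dex (20.6% and 21.9% of all genes), and 2 were higher and 2 lower with Eth (20.6% and 21.6%). C3, the central complement component, was higher (2.61 ± 0.23 with Dex, from 1.24 ± 0.246 to 7.64 ± 0.541 CPM) and PTX3, a pentraxin, was lower (-1.20 ± 0.06 with Dex). In siHP1γ cells 5 of 6 were higher and none lower with either treatment, beside 16.5% of all genes higher and 15.2% lower with Eth and 11.7% and 12.3% with Dex, led by CXCL8 (1.57 ± 0.12 with Dex) and CXCL1 (1.67 ± 0.15 with Dex).

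Among adipogenic and metabolic targets, a list of 21, 10 were tested and 3 rose with Dex in siNS cells, with none lower. They were ANGPTL4, an inhibitor of lipoprotein lipase (3.14 ± 0.29), IGFBP1, a binder of insulin-like growth factors (0.82 ± 0.09), and KLF15, a transcription factor of gluconeogenesis (0.74 ± 0.15). In siHP1γ cells 3 and in siPRMT5 cells 4 rose with Dex, and none fell. Of all genes 1.65% rose in siNS, 1.01% in siHP1γ and 2.69% in siPRMT5 cells, and 1.06%, 0.66% and 2.75% fell. PPARG, the nuclear receptor that C/EBP proteins activate in adipogenesis, was higher in siPRMT5 cells (0.53 ± 0.07 with both treatments). In siPRMT5 cells 4 were higher and 2 lower with Dex (20.6% and 21.9% of all genes), and 3 were higher and 3 lower with Eth (20.6% and 21.6%). In siHP1γ cells 2 were higher and 4 lower with Dex (11.7% and 12.3% of all genes), and 3 were higher and 5 lower with Eth (16.5% and 15.2%), with INSR, the insulin receptor, lower (-0.85 ± 0.09 with Dex and -0.49 ± 0.09 with Eth).

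The genes whose levels ran most like each member over the 18 libraries, by Pearson's r of log2 CPM over genes that averaged 5 CPM or more, are given as a description, since the points share libraries and conditions. For CEBPB these were NAGS (r = 0.982), RGCC (0.967), KDR (0.964), FBLN5 (0.964) and PXYLP1 (0.964). NAGS, a mitochondrial enzyme that primes the urea cycle, averaged 24.9 ± 1.29 CPM in siNS Eth, 52.8 ± 1.45 in siNS Dex and 73.3 ± 7.94 in siPRMT5 Dex. For CEBPD they were SIX2 (0.99), TNFAIP3 (0.979), SPOP (0.973), PITPNC1 (0.973) and TSC22D3 (0.971), of which TNFAIP3 encodes A20, an inhibitor of NF-κB signalling, and TSC22D3 encodes GILZ. For CEBPG they were AHCYL1 (0.995), ARSJ (0.994), SBDS (0.994), CYB5R3 (0.993) and NCK2 (0.992). CYB5R3, a cytochrome b5 reductase, was at 435 ± 29.4 CPM in siNS Eth and, after PRMT5 depletion, at 76.5 ± 6.69 with Eth. For CEBPA the closest were B4GALT7 (0.788) and BCAR1 (0.767), the other three having r of 0.718 to 0.742. Between the members, r was 0.941 for CEBPB and CEBPD, -0.399 for CEBPD and CEBPG, and -0.178 for CEBPB and CEBPG.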

How the data were processed

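RNA of 18 cultures of MDA-MB-231 cells was sequenced, 3 replicates for each of 6 conditions, which were taken from the sample titles. The authors prepared libraries with Lexogen kits, mapped reads on hg38 with Bowtie2 2.4.2 and counted them with htseq-count 0.9.1, and deposited whole-number counts per gene symbol, without normalization, for 60642 symbols. Their deposit includes fold changes and p-values of DESeq2 2.11.40.7 between conditions, which were not used. The strand setting and gene annotation are not given in the sources used here. Bowtie2 does not split reads over introns, so reads over junctions of the multi-exon CEBPG can be lost, more than for the single-exon members.

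The C/EBP genes and all lists were chosen with earlier results of these data known. Library sizes were scaled by TMM after edgeR's filterByExpr, which left 15298 genes. All 18 libraries, with 1 mean a condition, entered a quasi-likelihood fit (edgeR 4.0.16, R 4.3.3) with 12 residual degrees of freedom, and p-values were Benjamini-Hochberg adjusted over the 15298 genes. Dex responses were called at an adjusted p under 0.01 and at least 1.5-fold, all other comparisons at under 0.05; 11 comparisons were made, 2 of them differences between Dex responses. Intervals are 95%. All comparisons with siNS Dex or siNS Eth share those libraries, and p-values measure the spread between the cultures only. From each list and comparison at most 3 genes with the smallest adjusted p were named, and 5 of like pattern for each member. The values of 1 listed gene are not reported here. Alternatives were DESeq2 1.42.0, DESeq2's size factors or library size alone in edgeR, no filter, a minimum of 10 counts per library, a block for replicate numbers, fits on only the libraries compared, and fits that left out each library.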

Additional observations from a re-analysis of the deposited data

Results flagged for a closer look

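These results differed in their Dex response between siRNA backgrounds, tested as a difference of log2 fold changes in the fit of all 18 libraries. Of all genes tested, 3.8% differed in siPRMT5 and 0.399% in siHP1γ cells. For CEBPB the response was larger in siPRMT5 than in siNS cells by 0.59 (adjusted p = 0.0285), a call lost in 8 of the 18 fits without 1 library. Of the listed genes, JUN fell less in siHP1γ than in siNS cells (difference 0.51, adjusted p = 0.0433). CXCL8 also differed by 0.73 there (adjusted p = 0.0361). DDIT4 differed by -0.73 in siHP1γ cells (adjusted p = 0.00404). In siPRMT5 cells IL1A differed by 0.73, SOCS3 by -0.68 and TLR4 by -1.02, and TLR4 fell with Dex in these cells by 1.02 on the log2 scale. CXCL1 differed by 0.97 in siPRMT5 cells (adjusted p = 0.0393). KLF15 differed by 1.27 (adjusted p = 0.00135) and VLDLR by -0.57 (adjusted p = 0.00685) in the same cells.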

How the results depend on the processing

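The calls for CEBPB and CEBPD in the 3 Dex responses, for CEBPD and CEBPG in siPRMT5 against siNS and for CEBPB in siPRMT5 Dex against siNS Dex stood in all alternatives and in all 18 fits without 1 library. With library size alone, CEBPG passed as higher in siHP1γ Dex than siNS Dex (0.18, so 1 of the 4 members was called), CEBPA turned to 0.036 in that comparison, and CEBPB turned to 0.011 in siPRMT5 Eth against siNS Eth; the median of all genes moved by up to 0.0813 under it. With at least 10 counts in every library, CEBPB no longer passed in siHP1γ Eth (0.28, 1 member called). With no filter, CEBPB passed in the difference of Dex responses between siHP1γ and siNS (-0.47, 1 member called). The cause was not tested. Without 1 library, CEBPB ranged from -0.30 to -0.063 in siHP1γ Dex against siNS Dex, from 0.20 to 0.35 in siHP1γ Eth, from -0.097 to 0.070 in siPRMT5 Eth, from 0.52 to 0.69 in the difference of Dex responses in siPRMT5 cells and from -0.36 to -0.22 in siPRMT5 against siHP1γ with Eth. CEBPD ranged from 0.32 to 0.44 in siHP1γ Eth, and CEBPA from -0.14 to 0.0725 in siHP1γ Dex, from -0.0044 to 0.30 in siPRMT5 Eth, from -0.15 to 0.058 for Dex in siHP1γ cells and from -0.17 to 0.0011 for Dex in siPRMT5 cells. The number of members called ranged from 0 to 1 in siHP1γ Dex, from 0 to 2 in siHP1γ Eth, and from 0 to 1 for the difference of Dex responses in siPRMT5 cells. Genes called for the difference of responses in siHP1γ cells were 61, against 289 with DESeq2 and 374 with no filter.

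With the replicate block, CEBPB in the difference of Dex responses in siPRMT5 cells was 0.59 (adjusted p = 0.0258), and no call of a member changed; genes called for the difference of responses in siHP1γ cells went to 94. Same-numbered libraries of different conditions had correlations of -0.438 to 0.602, over 0.1 in 13 of 45 pairs, and in no 2 conditions that were directly compared did all 3 numbers pass 0.1. They did in siNS Eth and siHP1γ Dex (0.602, 0.333 and 0.21), which both enter the difference of Dex responses between siHP1γ and siNS cells. The main fit did not pair the cultures by number, and whether the numbers mark pairs was not settled. Depth limits CEBPA most, with 28 to 67 counts a library.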
